A study of Mus musculus with 4 samples.

Results

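Macrophage and monocyte transcripts were examined in ILC3s sorted from the large intestine. They were represented by 8 genes, *C1qa*, *C1qb*, *C1qc*, *Cd14*, *Cd68*, *Csf2rb*, *Cybb* and *Lyz2*, which were chosen by name from the 2179 genes of the deposited comparison with earlier results of these data known. ILC3s are lymphoid cells of the gut wall that lack antigen receptors and secrete IL-22. Cells were collected as Lin-GFP+ lamina propria lymphocytes from *Rag1*-/- mice with a GFP reporter of ILC3s on day 3 after 1 µg of the agonistic antibody α-DR3 (clone 4C12, against the receptor for TL1A) or after PBS. All mice of both groups lacked *Rag1*, and therefore mature T and B cells, and carried the GFP reporter. Each group had 2 libraries, each from the pooled ILC3s of several mice, and the deposited table gives only the mean of each group. Values of single libraries were not used here, so neither the spread between libraries nor the depth of each library is given. The values below are the authors' means and carry no error, and no test between the groups was made.

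Macrophages and monocytes are phagocytes that take up and digest microbes and dying cells, and resident macrophages are abundant in the intestinal lamina propria. They are recognised by transcripts of the phagocytic machinery, such as complement C1q, lysozyme, the LPS co-receptor CD14, the endolysosomal protein CD68 and the phagocyte NADPH oxidase. GM-CSF, a cytokine that ILC3s produce, acts on such cells through a receptor whose signaling chain is the product of *Csf2rb*. In the flow cytometry of the study the lineage antibodies were against CD3, B220, CD11b and CD11c, of which the last pair binds most macrophages and dendritic cells.

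All 8 transcripts had a higher mean in α-DR3-treated mice. Levels are given as FPKM, which divides the fragments counted for a gene by transcript length and by the size of the library, so that genes can be compared. Summed over the 8 genes, the level was 9.89 FPKM in PBS and 60.9 FPKM in α-DR3, a ratio of 6.15. *Lyz2* made up 41.3% of that sum in PBS and 62.3% in α-DR3, and the other 7 genes without it gave 5.81 and 23.0 FPKM, a ratio of 3.95. The ratio of the group means ranged from 2.31 to 9.98 between genes, with a median of 6.17, against a median of 1.30 over all listed genes. Of all listed genes 54.6% had a higher mean in α-DR3, 37.1% were at least 1.5-fold higher and 20.5% at least 2-fold higher, whereas all 8 genes were at least 2-fold higher.

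**Figure D1:**
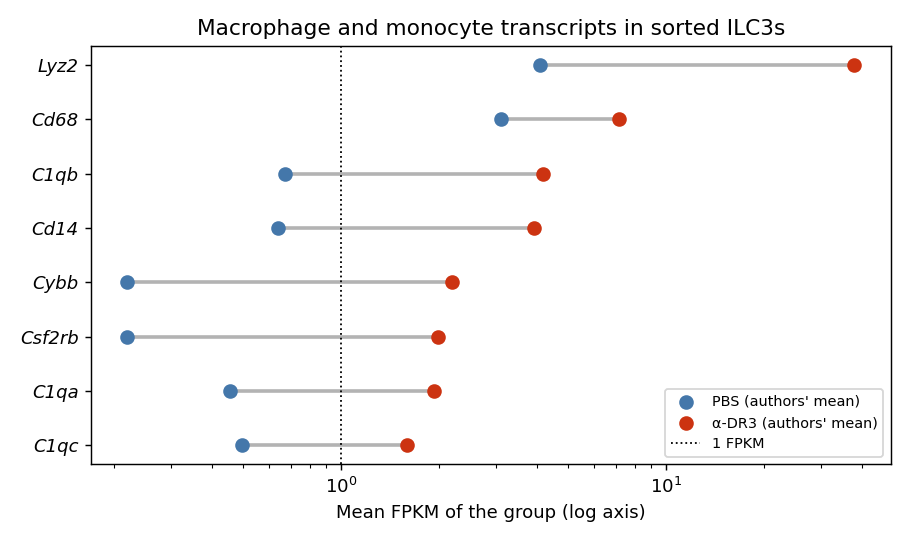
Mean FPKM of the 8 transcripts (log axis) in ILC3s from PBS-treated (blue) and α-DR3-treated (red) mice; each point is the authors' mean of a group, grey lines join both means of a gene and the dotted line marks 1 FPKM. The red point lies to the right of the blue point for every gene, and 6 of the 8 blue points lie below 1 FPKM.

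The way in which the table was made bears on these counts. A gene entered it only if it passed the significance limit of the authors' comparison and had a mean over 1 FPKM in either group, and the lowest of the larger means was 1.005 FPKM. A gene with a mean under 1 FPKM in PBS could therefore be listed only if it was higher in α-DR3, and all 207 listed genes of this kind were higher. Of the 8 transcripts, 6 (all except *Lyz2* and *Cd68*) were among these 207 genes. Their direction was thus set by the listing, and so was a part of their size. With its PBS mean, *Cybb* or *Csf2rb* could be listed only with a ratio over 4.55, *C1qa* over 2.20, *C1qc* over 2.02, *Cd14* over 1.56 and *C1qb* over 1.49. The measured ratios of these 6 genes had a median of 6.17, and the 207 genes had a median of 4.15 where the PBS mean was above 0. Among the 1972 genes with a PBS mean of at least 1 FPKM, which could be listed in either direction, 49.8% were higher in α-DR3, 30.5% were at least 1.5-fold higher and 13.1% at least 2-fold higher. *Lyz2* and *Cd68* belong to this larger set, and both were more than 2-fold higher, but *Cd68* was under 2-fold, at 1.77, when the group means were rescaled by their median ratio.

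*Lyz2* encodes lysozyme M, which cleaves bacterial cell walls and is made by macrophages, monocytes and neutrophils. Its mean was 4.09 FPKM in PBS and 37.9 FPKM in α-DR3, a ratio of 9.28 and a difference of 2.94 on the log2(FPKM + 1) scale. It had the highest level of the 8 genes in both groups. In PBS 71.4% of the listed genes lay above *Lyz2*, and in α-DR3 20.9% did. The gene (ENSMUSG00000069516.6) lies on chromosome 10 of GRCm38, 117277331 to 117282321 on the minus strand, and its paralog *Lyz1* starts 5475 bases beyond it. *Lyz1* is not among the listed genes. Of the distinct 50-base stretches of the *Lyz2* transcripts, the length of the sequenced reads, 15.4% also occurred in *Lyz1* transcripts, so a part of the *Lyz2* value depends on how such reads were divided.

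*Cd68* encodes a heavily glycosylated protein of late endosomes and lysosomes in phagocytes. It had the second highest level, 3.11 FPKM in PBS and 7.17 FPKM in α-DR3, and the smallest ratio of the 8 genes, 2.31. The ratio of *Lyz2* to *Cd68* was 1.32 in PBS and 5.29 in α-DR3, so the transcripts did not keep a fixed proportion to each other between the groups. *Cd68* (ENSMUSG00000018774.7) lies on chromosome 11, 69664213 to 69666153, on the minus strand.

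*C1qa*, *C1qb* and *C1qc* encode the A, B and C chains of C1q, the subunit of the classical complement pathway that recognises antibody complexes and dying cells, and tissue macrophages are its main source. The genes lie side by side on the minus strand of chromosome 4, within 18675 bases from 136880129 to 136898803. *C1qa* (ENSMUSG00000036887.5) had 0.455 FPKM in PBS and 1.94 FPKM in α-DR3, *C1qb* (ENSMUSG00000036905.8) 0.670 and 4.17 FPKM, and *C1qc* (ENSMUSG00000036896.5) 0.495 and 1.59 FPKM. The ratios were 4.25, 6.22 and 3.21. Summed over the 3 chains, the level was 1.62 FPKM in PBS and 7.70 FPKM in α-DR3, a ratio of 4.75. *C1qb* was 1.47 times the level of *C1qa* in PBS and 2.16 times in α-DR3. None of the 50-base stretches of the C1q transcripts occurred in transcripts of another gene.

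*Cd14* encodes the co-receptor that passes bacterial LPS to TLR4 on monocytes and macrophages. *Cd14* (ENSMUSG00000051439.6) had a mean of 0.640 FPKM in PBS and 3.91 FPKM in α-DR3, a ratio of 6.11 close to that of *C1qb*. Of 13 other genes of LPS recognition, only *Ly86* and *Ticam1* were listed. *Ly86*, which encodes a secreted partner of the receptor CD180, had 11.7 FPKM in PBS and 25.2 FPKM in α-DR3. *Ticam1*, which encodes the TLR adaptor TRIF, had 7.75 and 11.3 FPKM. *Tlr4* and *Ly96*, which form the LPS receptor itself, are not listed, and their levels were not analysed here.

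*Cybb* encodes the catalytic subunit of the phagocyte NADPH oxidase, which makes superoxide. It had the largest ratio of the 8 genes, 9.98, with means of 0.220 FPKM in PBS and 2.20 FPKM in α-DR3. Most other listed genes of the oxidase stood at far higher levels in the same libraries. *Cyba*, whose product pairs with that of *Cybb* in the membrane, had 589 FPKM in PBS and 888 FPKM in α-DR3, which was 2678 times and 404 times the level of *Cybb*. The cytosolic subunits *Ncf4* (61.2 and 87.4 FPKM) and *Ncf1* (9.68 and 13.3 FPKM), the GTPase gene *Rac2* (290.2 and 407 FPKM) and the *Cybb* homolog *Nox1* (3.00 and 5.11 FPKM) were also listed. Of 8 genes in the oxidase list, these 5 were listed, and all 5 were higher in α-DR3, by 1.37 to 1.70 times, beside 49.8% of all listed genes with at least 1 FPKM in PBS. After the group means were rescaled by their median ratio, the 5 ratios were 1.05 to 1.31. *Cybb* (ENSMUSG00000015340.4) lies on chromosome X, 9435252 to 9487771, on the minus strand.

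*Csf2rb* encodes the β chain shared by the receptors for GM-CSF, IL-3 and IL-5, which is found on myeloid cells including macrophages, eosinophils and mast cells. Its mean was 0.220 FPKM in PBS and 1.99 FPKM in α-DR3, a ratio of 9.05. The α chain *Csf2ra*, the paralog *Csf2rb2* and *Csf2*, the gene of GM-CSF, are not listed. Of the 10 other genes of this pathway, *Jak2*, the kinase bound to the β chain, had 16.7 FPKM in PBS and 32.1 FPKM in α-DR3, *Stat5a*, the transcription factor it activates, had 35.6 and 63.0 FPKM, and *Il5*, a cytokine gene of ILC2s, had 0.190 and 1.82 FPKM. *Csf2rb* (ENSMUSG00000071713.3) lies on chromosome 15, 78325752 to 78353847, on the plus strand, with *Csf2rb2* on the opposite strand 20030 bases away. Of the distinct 50-base stretches of its transcripts 12.3% also occurred in *Csf2rb2* transcripts.

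The order of levels was the same for the upper 4 genes in both groups, *Lyz2*, *Cd68*, *C1qb* and *Cd14*. The other 4 genes lay between 0.220 and 0.495 FPKM in PBS and between 1.59 and 2.20 FPKM in α-DR3, and their order differed between the groups, with *C1qc* first in PBS and last in α-DR3. Whether neighbours in this order differ beyond the spread between libraries was not tested, since group means alone were used.

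Promoters of these genes are shown as genomic context, although for 6 of the 8 genes the direction was set by the listing. Promoters, 250 bases before to 50 after the start in RefSeq (GRCm38.p6), were used for 5 of the 8 genes, *C1qb*, *C1qc*, *Cd68*, *Cybb* and *Lyz2*. They were searched on both strands for GAGGAA and AGGAAGT, letters of the site bound by PU.1, a transcription factor of the macrophage lineage. The motifs can overlap each other. All 5 promoters held at least one of them, and 32.7% of all 32851 promoters did. The promoters of *C1qa*, *Cd14* and *Csf2rb* were left out of the 5. The count therefore does not show how many of the 8 genes hold a motif. GAGGAA was found in 4 of the 5 and in 28.3% of all promoters, and AGGAAGT in 3 of the 5 and in 9.35% of all. Those of the neighbouring *C1qb* and *C1qc* and of *Lyz2*, the gene with the highest level, are given 5′ to 3′ along the gene, with the matches of either strand in capitals. They lie on the minus strand at chr4:136886151-136886450, chr4:136892865-136893164 and chr10:117282223-117282522. A match is a description of the sequence and not a bound site.
C1qb: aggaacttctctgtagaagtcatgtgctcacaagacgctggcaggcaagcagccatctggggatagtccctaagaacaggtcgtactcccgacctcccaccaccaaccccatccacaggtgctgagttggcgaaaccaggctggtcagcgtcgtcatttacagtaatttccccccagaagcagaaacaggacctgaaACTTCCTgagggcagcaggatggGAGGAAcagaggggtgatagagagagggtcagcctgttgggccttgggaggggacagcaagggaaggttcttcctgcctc
C1qc: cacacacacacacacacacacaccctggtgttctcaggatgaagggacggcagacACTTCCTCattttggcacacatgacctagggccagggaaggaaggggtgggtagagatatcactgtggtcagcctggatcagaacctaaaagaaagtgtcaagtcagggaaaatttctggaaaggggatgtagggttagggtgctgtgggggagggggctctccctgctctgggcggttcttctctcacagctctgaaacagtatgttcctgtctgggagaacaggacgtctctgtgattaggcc
Lyz2: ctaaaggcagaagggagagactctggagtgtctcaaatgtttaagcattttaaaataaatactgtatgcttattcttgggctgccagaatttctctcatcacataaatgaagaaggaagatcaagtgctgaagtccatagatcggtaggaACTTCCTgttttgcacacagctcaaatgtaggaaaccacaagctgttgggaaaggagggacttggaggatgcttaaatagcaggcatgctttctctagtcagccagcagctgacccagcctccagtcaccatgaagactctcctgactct

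*Sfpi1*, the gene of PU.1 itself, had 1.29 FPKM in PBS and 3.38 FPKM in α-DR3. It was one of 6 further genes listed from a set of 36 other macrophage and monocyte markers, each with the larger mean in α-DR3, beside 54.6% of all listed genes. *Emr1* and *Plbd1*, which have the largest ratios of these 6, were under 1 FPKM in PBS, which fixed their direction. *Emr1*, which encodes the classic surface marker of mouse macrophages, had 0.190 and 1.18 FPKM, and *Plbd1*, which encodes a phospholipase of myeloid granules, had 0.510 and 3.81 FPKM. *Lgmn*, the gene of the lysosomal protease legumain, had 4.29 and 10.3 FPKM, and *Apoe*, the gene of apolipoprotein E, had 4.34 and 7.54 FPKM. *Ctss*, the gene of cathepsin S, stood apart at 101.8 and 160.03 FPKM, above each of the 8 transcripts. The ratios of these 6 genes ranged from 1.57 to 7.47 with a median of 2.51. The remaining markers of that set, among them *Csf1r*, *Mertk*, *Fcgr1*, *Cd163* and *Itgam*, are not listed. A gene is unlisted if it stayed at or under 1 FPKM in both groups or if it missed the significance limit. Which of these applied was not analysed here. Of the phagocyte lysosome set, 1 of 13 genes was listed, *Ctsh* (cathepsin H), with 91.0 FPKM in PBS and 205.7 FPKM in α-DR3.

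Among complement components and regulators, 6 of 19 genes besides C1q were listed, each with the larger mean in α-DR3, beside 54.6% of all listed genes. Their median ratio was 2.88. *C3*, *Cfb* and *C1s* were under 1 FPKM in PBS, which fixed their direction, and the other 3 genes stand beside the 49.8% that were higher among all genes with at least 1 FPKM in PBS. *C3*, the central component, had 0.180 FPKM in PBS and 1.67 FPKM in α-DR3. *Cfp*, which encodes properdin of the alternative pathway, had 1.005 and 3.55 FPKM, and *Cfb*, which encodes factor B, had 0.785 and 2.17 FPKM. *C2* of the classical pathway had 4.07 and 7.63 FPKM, *C1s*, a protease that binds C1q, had 0.710 and 1.03 FPKM, and *Serping1*, the C1 inhibitor, had 1.32 and 3.97 FPKM. In both groups each of these 6 genes lay below *Lyz2*.

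Genes of the sorted cells themselves had higher levels than most of the macrophage transcripts. *Il22* had 17424 FPKM in PBS and 44537 FPKM in α-DR3, and *Tnfrsf25*, the gene of DR3, had 114.5 and 140.1 FPKM, a direction that turned when the group means were rescaled by their median ratio. It was 28.0 times the level of *Lyz2* in PBS and 3.70 times in α-DR3. Of 19 genes of an ILC3 list, 10 were listed, with 8 higher and 2 (*Ncr1*, with 460.2 and 279 FPKM, and *Il18r1*, with 127 and 85.8 FPKM) lower in α-DR3. All 10 had at least 1 FPKM in PBS, and of all listed genes of that kind 49.8% were higher. In PBS each of the 10 lay above all 8 transcripts, and in α-DR3 each did except *Ahr*, which had 10.7 FPKM in PBS and 16.0 FPKM in α-DR3 and there lay below *Lyz2*. CPM values, which are counts scaled to library size but not to length, were averaged by the authors over all 4 libraries. The 8 transcripts together took 52.1 CPM, of which *Lyz2* took 27.8 CPM. These averages include both groups and the depth behind them was not analysed here. No macrophage library was used here, so neither value gives a share of macrophages among the sorted cells. In such bulk samples, more cells of a type and more RNA per cell cannot be told apart.

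**Figure D2:**
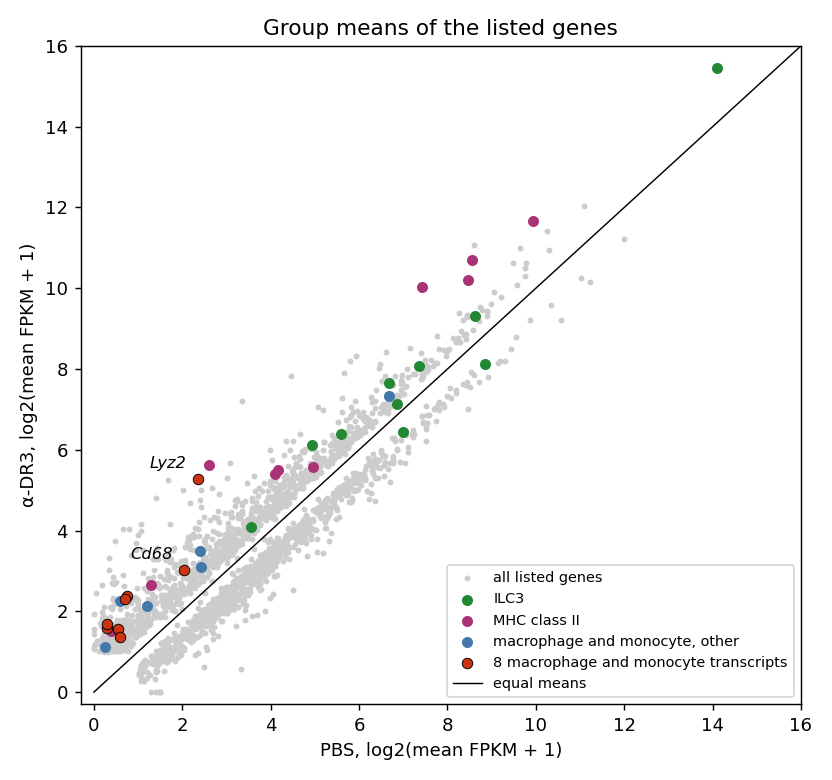
Group means of all 2179 listed genes as log2(mean FPKM + 1), PBS on the horizontal and α-DR3 on the vertical axis; coloured points are the 8 macrophage and monocyte transcripts, 6 other macrophage genes, 10 ILC3 genes and 10 MHC class II genes, and the line marks equal means. All 8 transcripts lie above the line, with 7 at the low end of both axes and *Lyz2* higher on the vertical axis, and genes under 1 FPKM in PBS (left of 1) appear only above the line.

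Markers of dendritic cells, another kind of phagocyte that presents antigen, were compared in the same way. Of 20 genes, 9 were listed, and each had the larger mean in α-DR3. Of these, 4 were under 1 FPKM in PBS, which fixed their direction, and the other 5 stand beside the 49.8% given above. The median difference was 1.16 on the log2(FPKM + 1) scale, against 1.34 for the 8 macrophage transcripts, 0.90 for the 6 other macrophage genes and 0.36 for all listed genes. The order of the first 3 medians did not hold with a pseudocount of 5, at which they were 0.51, 0.52 and 0.53. The listing raises such medians, since it held 4 of the 9, 6 of the 8 and 2 of the 6 genes through α-DR3 alone. With a mean over 5 FPKM in either group, the median was 0.77 for the dendritic cell genes and 0.68 for the other macrophage genes. *Ccl17*, a chemokine gene of activated dendritic cells, had 2.22 FPKM in PBS and 37.1 FPKM in α-DR3. *Fscn1*, the gene of the actin-bundling protein fascin, had 0.570 and 6.46 FPKM. *Irf8*, *Zbtb46*, *Cd83* and *Batf3*, in contrast, were already between 31.9 and 258 FPKM in PBS and were 1.38 to 1.77 times higher in α-DR3. The 10 listed MHC class II genes, which macrophages and dendritic cells as well as ILC3s can express, were all higher as well, with 1 of them under 1 FPKM in PBS, and the other 9 stand beside the same 49.8%. They ranged from *H2-DMa*, with 30.2 and 46.4 FPKM and the smallest ratio (1.54), to *H2-DMb2*, with 5.10 and 47.9 FPKM and the largest (9.40).

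Markers of other cells that a sort could carry over were counted too. None of 8 eosinophil and none of 12 epithelial markers was listed. This does not show that their RNA was absent, since a marker with similar levels in both groups is unlisted. Of 14 neutrophil markers, *Mmp9* had 11.8 and 15.2 FPKM, a direction that turned when the group means were rescaled by their median ratio, and *Retnlg* is listed at 0 in PBS and at 1.16 FPKM in α-DR3. Of 14 T and B cell markers only *Cd79b* was listed, with 10.9 and 27.2 FPKM. Of 12 fibroblast markers 7 were listed, all higher in α-DR3, but 4 of them were under 1 FPKM in PBS, which fixed their direction. The other 3 stand beside the 49.8% that were higher among all listed genes with at least 1 FPKM in PBS. Of the 7, *Dcn* had 3.16 and 8.69 FPKM, *Col3a1* had 1.23 and 3.06 FPKM and *Lum* had 0.600 and 1.82 FPKM. The part of RNA from other cells in the higher macrophage transcripts was not tested.

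**Figure D3:**
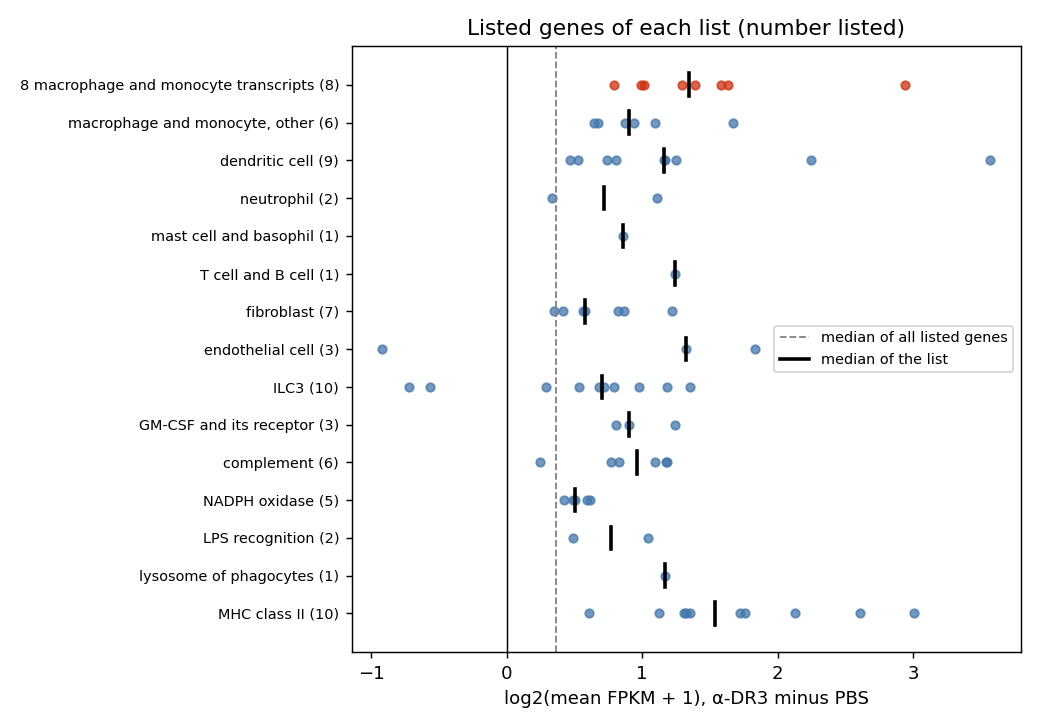
Differences between the group means, α-DR3 minus PBS on the log2(FPKM + 1) scale, for the listed genes of each list (points) with the median of the list (black bar) and the median of all listed genes (dashed line). The 8 macrophage and monocyte transcripts (red) lie between 0.79 and 2.94, and only the ILC3 and endothelial lists hold genes below 0.

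The genes whose pair of means was nearest to the medians of the 8 transcripts (0.568 FPKM in PBS and 3.05 FPKM in α-DR3) were found by the distance on the log2(FPKM + 1) scale in both groups. The 5 nearest were *Gm1987* (0.495 and 3.14 FPKM, distance 0.09), *Penk* (0.685 and 2.85 FPKM, 0.11), *Tcte1* (0.660 and 3.36 FPKM, 0.16), *Ube2e2* (0.665 and 2.52 FPKM, 0.19) and *Plagl1* (0.560 and 2.45 FPKM, 0.20). *Penk* encodes the precursor of enkephalins and *Ube2e2* a ubiquitin-conjugating enzyme. Likeness over only 2 group means is a weak description.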

How the data were processed

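RNA of ILC3s was sequenced from 2 libraries per group, grouped by the treatment given in the sample labels. According to the labels and the methods, the authors used STAR 2.5 to align paired-end reads of 50 bases against GRCm38.p5, RSEM 1.2 with GENCODE M16 to quantify genes and edgeR 3.18.1 to compare the groups. The deposited table lists genes with p below 0.05 whose larger group mean exceeded 1 FPKM. The mean FPKM of each group is the authors' mean of its libraries, not rescaled between them, and the deposited log2 mean CPM is the average over all 4 libraries. Gene lengths are in bases. Columns of fold changes, likelihood ratios, p-values and FDR of the authors' comparison were not used. The control column is headed wt and was taken as PBS, the other group of the labels.

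Ratios of means, and differences of log2(FPKM + 1), which understate the change of low genes, were computed with Python 3.11.15, numpy 2.4.6 and pandas 2.3.3 after the steps were tested on simulated data. The deposited table has no column of a single library, so no test, SD or depth is given. List genes were matched by Ensembl identifier and named as in the table. GENCODE M21, on the same build, held 2149 of 2179 identifiers and gave coordinates and transcripts for the shared stretches of 50 bases. The genes, lists and motifs were chosen with earlier results of these data known. Named genes are the 8 transcripts, at most 6 listed genes per list, the extremes of MHC class II and the 5 genes nearest in level. *Tnfrsf25*, *Il18r1*, *Ahr* and the genes named as unlisted were chosen after the table was seen. Some genes are not reported here. Alternatives were pseudocounts of 0.1 and 5, rescaling by the median ratio, and filters on low FPKM.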

Additional observations from a re-analysis of the deposited data

How the results depend on the processing

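A pseudocount cannot change which mean is larger, and for 6 of the 8 transcripts the listing set the direction, so a direction bears on stability only for *Lyz2* and *Cd68* and only when each group mean was divided by its median ratio over the listed genes. Their ratios were then 7.11 and 1.77. The median difference over the 8 transcripts, 1.34 with a pseudocount of 1, was 2.45 with 0.1, 0.52 with 5 and 1.18 after rescaling. Rescaling lowered α-DR3 against PBS by 0.39 on the log2 scale for all genes. It left 49.98% of listed genes higher in place of 54.6%, but dividing by the median ratio fixes this share in advance. The ratios of the 8 transcripts then ranged from 1.77 (*Cd68*, then under 2-fold) to 7.64 (*Cybb*). The number of listed genes at least 1.5-fold higher, 808, was 364 with a pseudocount of 5 on the fold, 460 after rescaling and 517 with a mean over 5 FPKM in either group. It was 801 with a pseudocount of 0.1, 699 with 1 (chosen after seeing the data) and 602 among genes with at least 1 FPKM in PBS. With a pseudocount of 5 the medians of the dendritic cell genes and the other macrophage genes were 0.51 and 0.53, next to the 0.52 of the 8 transcripts, so their order depends on the pseudocount. After rescaling, the medians of the 14 other lists with a listed gene ranged from 0.13 (oxidase) to 1.21 (MHC class II). *Tnfrsf25* and *Mmp9* changed direction on rescaling. No paired analysis was possible because the deposited table holds group means and values of single libraries were not used here, and for the same reason leaving out each replicate was not run. The rescaling assumes that the listed genes are balanced, and they were selected for a difference. Depth limits the low genes most, and it was not analysed here.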

Other observations

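Other listed markers showed the following values, in PBS and in α-DR3. *Mcpt8*, a protease gene of basophils, had 0.375 and 1.49 FPKM and was the 1 listed gene of 11 mast cell and basophil markers. Of 9 endothelial markers, *Eng* had 11.5 and 30.4 FPKM, *Cldn5*, a tight junction gene, had 1.75 and 8.77 FPKM, and *Esam* was lower in α-DR3, with 6.57 and 3.01 FPKM. *Vim*, the gene of the intermediate filament protein vimentin, had 114.1 and 152.6 FPKM, a level that sets it apart from the collagen genes of the fibroblast list.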
